A study of Mus musculus with 4 samples.

Results

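Liver RNA that bound an antibody against methylated adenosine was compared between Fto knockout and wild-type mice, and every feature of the authors' deposited comparison is described here. The rule took all rows, without regard to their values: 7569 transcript identifiers carrying 5171 names, out of 20452 features in both of the study's comparisons. The other 12883 are genes of the input RNA. Both groups were mice of a C57/Bl6 background, 1 of them wild type and the other lacking Fto. The tissue was labelled as liver biopsy, total RNA was used in both, and 3 replicates were stated for each. Neither sex, age nor the knockout allele is stated, and whether replicates were separate animals was not given in the sources used here. If they were not separate animals, the authors' p-values measure only the scatter of these libraries, which can be technical. The values are the authors' means over libraries, fold changes and tests; values of single libraries were not analysed here, so the depth of each library is unknown.

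FTO is a demethylase that removes the methyl group from the N6 position of adenosine in RNA. The antibody recognises internal N6-methyladenosine (m6A) and also m6Am, the form with a second methyl group on the ribose, which sits at the first transcribed base next to the cap. Small nuclear RNAs (snRNAs) of the spliceosome made by RNA polymerase II are capped and start with adenosine, so m6Am can occur on them as well as on messenger RNAs. A fold change in an immunoprecipitate follows both how much of an RNA was present and how much of it was bound. In bulk tissue, fewer cells of a type and less RNA per cell cannot be told apart.

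Fto itself was checked first. Its log2 fold change in the input RNA was −1.49 by the authors' deposited table (SE 0.27, mean 55.8, adjusted p = 3.52e-04), and no row of the immunoprecipitate analysed here carries its name. The direction of the fold change is not stated in either header. It is read as knockout over wild type in both, and no value inside the immunoprecipitate comparison tests that reading. If it ran the other way, every higher and lower given below for the immunoprecipitate would be exchanged.

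By the authors' adjusted p under 0.05, features of 3 snRNA names were higher in the knockout immunoprecipitate and features of 70 names were lower. The higher features were the spliceosomal U1, U5 and U4atac. Lower features came from 50 protein-coding names, 18 small nucleolar RNA (snoRNA) names, 7SK and 5S ribosomal RNA. In rows, 21 were called higher and 89 lower. An adjusted p was given for 2347 rows, so the shares called were 0.895% higher, 3.79% lower and 4.69% in either direction. The count of higher calls rests on rows of near-identical U1 copies: with 1 row per name, the one of highest mean, 2 names were higher and 60 lower. Adjusting over all rows that have a p, in place of the authors' adjustment, left 5 higher and 29 lower. The calls of U4atac, 7SK, 5S ribosomal RNA, snoMBII-202, Scp2, Cxcl12, Atp5c1 and both SNORA42 rows, given further on, ended under that adjustment. So did those of Bsg, of both Tlcd2 rows and of the cytosolic ribosomal protein genes. Most U1 and snoRNA calls and some of the Ugt1a10 and Hnrnph2 calls ended as well.

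A call here joins the authors' p to the sign of their printed fold change, and whether both belong to the same contrast was not given in the sources used here. They can differ: a U1 row was put by the authors' deposited table at 4.61 (SE 0.78, mean 142) with an unadjusted p of 0.608. Which libraries enter the mean was not stated either.

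**Figure D1:**
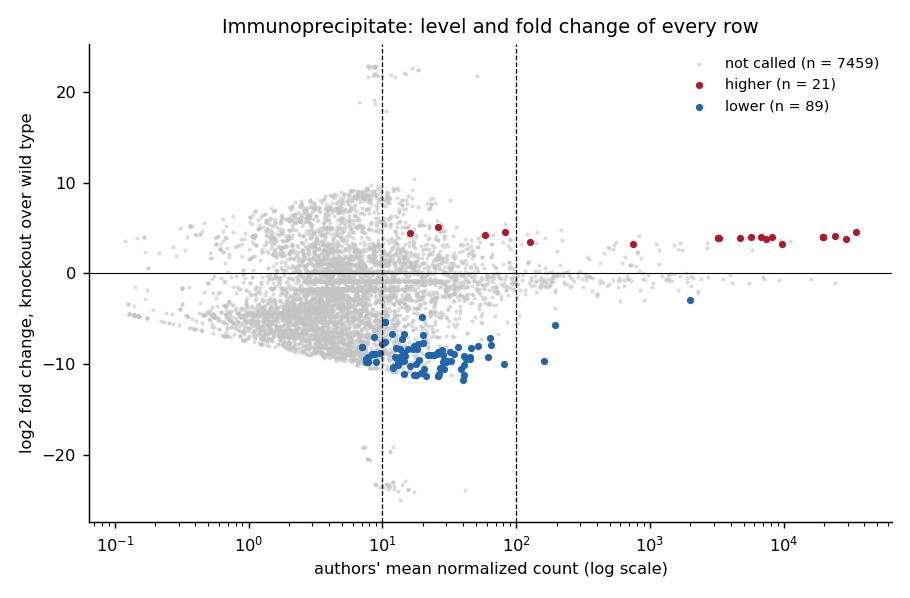
Each point is 1 row, with the authors' mean normalized count on a log x axis and the log2 fold change (knockout over wild type) on the y axis; dashed lines mark means of 10 and 100, and colours mark the authors' calls. The 21 higher calls reach a mean of 34539, and 74 of the 89 lower calls lie between the dashed lines.

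Whether a row could be called depended on its mean. An adjusted p was present only from a mean of 6.95 upwards, and the highest mean of a row with a p and no adjusted p was 6.94. Of 5887 rows with a mean under 10, only 776 therefore had an adjusted p. Of these, 1.55% were called, all 12 of them lower. Between 10 and 100, 1357 of 1465 rows had an adjusted p and 5.75% were called: 0.295% were called higher (4 rows) against 5.45% lower (74 rows). Above 100, 214 of 217 rows had one and 9.35% were called: 7.94% were called higher (17 rows) against 1.4% lower (3 rows). So 17 of the 21 higher calls sat on the most abundant RNAs, and 86 of the 89 lower calls on RNAs with a mean of at most 100.

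Precision moved with abundance as well. The median standard error of the log2 fold change was 2.88 in rows under 10, 2.01 between 10 and 100 and 0.77 above 100, by the authors' deposited table. Median log2 fold changes there were −1.77, −1.02 and −0.38 in the same order. Over all 7569 rows the median was −1.59 and 5334 rows lay below 0, so medians of classes and lists are to be read beside these values. Rows above 100 held 87.6% of the summed means, although they are 217 of 7569 rows.

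**Figure D2:**
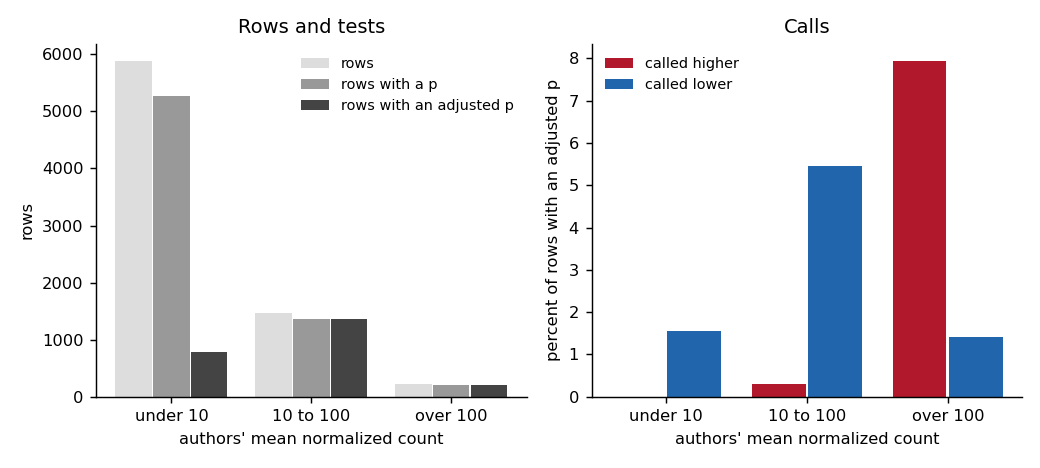
Left, the number of rows, of rows with a p and of rows with an adjusted p in each class of mean normalized count; right, the percent of rows with an adjusted p that the authors' adjusted p called higher or lower. Higher calls go from 0 to 7.94% from the lowest to the highest class, and lower calls peak at 5.45% between 10 and 100.

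snRNAs were the 1 class of RNA that held higher calls. Their 297 rows carried 9 names, made up 55.2% of the summed means and had a median log2 fold change of 1.46 in the authors' deposited table, which was 3.05 above the median of all rows. Of 135 snRNA rows with an adjusted p, 15.6% were called higher, against 0.895% of all such rows, and 0 lower. Above a mean of 100 the authors' deposited table gave 58 snRNA rows a median of 3.28, and between 10 and 100 it gave 57 rows a median of 2.45. Below 10, the median of 182 rows was −0.09 in the authors' deposited table and none was called.

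The snRNA families differed in how many of their rows were tested and called. U1, which pairs with the start of the intron, had 77 rows with a median of 3.88 in the authors' deposited table, 74 of them above 0. Of its 56 tested rows 19 were called higher, beside the 0.895% over all tested rows. Most of these 19 calls ended when p was adjusted over all rows. The most abundant feature of the whole comparison, a U1 row, was put by the authors' deposited table at 4.50 (SE 0.49, mean 34539, adjusted p = 0.00333). Every one of the 8 rows of U5, which holds the exons together, lay between 3.01 and 3.75 in the authors' deposited table, with 1 called, at 3.75 (SE 0.52, mean 7315, adjusted p = 0.0169). The single row of U4atac, of the minor spliceosome, was put by the authors' deposited table at 3.45 (SE 0.59, mean 128, adjusted p = 0.0274). U4, the partner of U6, had 19 rows above 0 with a median of 2.56 in the authors' deposited table. Of its 10 tested rows 0 were called. U2, which pairs with the branch point, had a median of 1.66 over 25 rows in the authors' deposited table, with 0 of 18 tested rows called. U6, made by RNA polymerase III and capped in another way, had 155 rows with a median of −0.82 in the authors' deposited table. Only 36 of these U6 rows were tested, and 0 were called. The median mean of U6 rows was 4.08, against 29.5 for U1, so most U6 rows could not be called and the 2 families are not compared by calls. Copies within a family are nearly the same sequence and how shared reads were counted was not given in the sources used here, so rows of a family are not independent and single copies are uncertain.

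Sequences of these snRNAs were not used here, so the start of a U1 transcript is not printed.

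**Figure D3:**
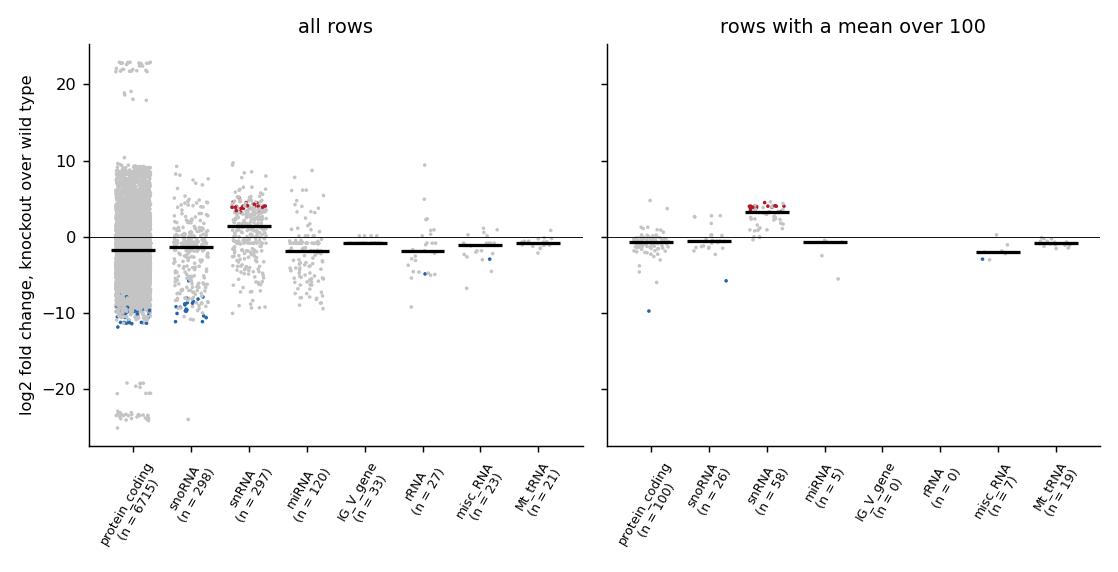
Each point is 1 row, placed by annotated RNA class (classes of at least 20 rows) against its log2 fold change, with black lines at the medians and coloured points for the authors' calls; left, all rows, and right, rows with a mean over 100. On the right the 58 snRNA rows have a median of 3.28 while the 100 protein-coding rows have a median of −0.69.

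snoRNAs guide the chemical modification of ribosomal and small nuclear RNA, and in the mouse most are cut out of introns and so carry no cap of their own. They numbered 298 rows with 152 names, and 20 rows of 18 names were called lower, 9.26% of the 216 rows with an adjusted p against 3.79% of all such rows. Most of these 20 calls ended when p was adjusted over all rows. H/ACA box snoRNAs, which guide pseudouridylation, had 12 of 103 tested rows called lower, and C/D box snoRNAs, which guide ribose methylation, 8 of 112. The lowest p of the whole comparison belonged to the H/ACA snoRNA SNORA7, put by the authors' deposited table at −10.04 (SE 1.33, mean 80.6, adjusted p = 6.26e-07). Among C/D box snoRNAs SNORD37 was put by the authors' deposited table at −7.87 (SE 1.13, mean 65.2, adjusted p = 8.96e-05). SNORA42 had 2 of its 6 copies called, at −8.15 and −8.02, and the other four lay between −8.32 and −1.75 in the authors' deposited table. At high abundance the snoRNA snoMBII-202 was called lower, and by the authors' deposited table was at −5.76 (SE 1.09, mean 194, adjusted p = 0.0331).

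The snoRNA names with the highest means stood on the other side of 0. U3 and U8 act in ribosomal RNA processing and, unlike most snoRNAs, have promoters and caps of their own. The 7 rows of U3 lay between 1.77 and 4.18 and both rows of U8 at 2.77 and 3.91 in the authors' deposited table, and none was called. The most abundant U8 row, at 2.77, had an SE of 0.58 and an adjusted p of 0.0674 by the authors' deposited table. Other abundant snoRNAs were not called: SNORD47 was put by the authors' deposited table at −0.54 (SE 0.69, adjusted p = 1) and the most abundant SNORD14 row at −1.40 (SE 0.72, adjusted p = 0.503). Over the 26 snoRNA rows above a mean of 100 the median was −0.57 in the authors' deposited table.

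Messenger RNAs gave most of the lower calls but not the largest share. Of 6715 protein-coding rows 67 were called lower and 0 higher. The lower calls are 3.56% of the 1880 rows with an adjusted p. That is near the 3.79% called lower over all 2347 tested rows, 1880 of which are these, and 0.895% of all tested rows were called higher. The fold changes of the 67 lay between −11.81 and −5.42 in the authors' deposited table, with standard errors from 1.26 to 2.57 and a median mean of 17.9. With means this low and errors this wide, their sizes are not ranked and are not read as measured amounts of change.

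Lower calls with the smallest p covered several cellular roles. Rbm14, an RNA-binding coactivator found in nuclear paraspeckles, was put by the authors' deposited table at −11.21 (SE 1.59, mean 17.3, adjusted p = 5.27e-05). Ppm1k, the mitochondrial phosphatase that activates branched-chain amino acid breakdown, was put by the authors' deposited table at −10.97 (SE 1.62, adjusted p = 5.29e-05). Mrpl52, of the mitochondrial ribosome, was put by the authors' deposited table at −8.36 (SE 1.26, adjusted p = 4.52e-04). Dio1, the deiodinase that activates thyroid hormone in liver, was put by the authors' deposited table at −9.66 (SE 1.64, adjusted p = 0.00148) and Prdx1, a peroxide-reducing enzyme, at −9.49 (SE 1.76, adjusted p = 0.00148). In the same group were Ppara, Etfdh, Saa4, Ugt1a10 and Aplp2, between −11.32 and −9.63 in the authors' deposited table. All of these called rows had means between 13.8 and 45.4. Rbm14 and Ppara were called in 1 row each: the other Rbm14 row, without a p, stood at −9.84 and the other two of Ppara at −6.11 and −4.97 in the authors' deposited table.

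Starts of some of these messenger RNAs are shown because m6Am lies on the first transcribed base. Each line gives 20 bases before and 10 bases from the RefSeq start (build GRCm38.p6, gene strand, 5′ to 3′), with the first transcribed base in capitals, for the 6 called genes of lowest p that have 1 listed start, leaving out Ugt1a10, whose cluster has many first exons.
Rbm14 (chr19:4811625-4811654, minus strand): gcctccaattggttaggttaGagcgcctgc
Ppm1k (chr6:57535478-57535507, minus strand): ctgtcaatcatcggaaatacActcctccgg
Saa4 (chr7:46732594-46732623, minus strand): gatttaaaagcactcttctcAttaatgtta
Ppara (chr15:85735756-85735785, plus strand): cggactaggggcgcgggtctGgagacccac
Etfdh (chr3:79628758-79628787, minus strand): cggaaaccttactggccttcGtgtcctctg
Mrpl52 (chr14:54426889-54426918, plus strand): gtggctgccggggccacgccCacttccggt
Of these windows 2 have A at the start. Over the 39 of 50 called protein-coding names that matched, 18 of 45 listed starts (40%) had A, beside 1568 of 4714 (33.3%) over all 3665 matched protein-coding names. RefSeq starts are annotated positions and need not be the starts used in liver, and no test was made of these shares.

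At low abundance 12 rows of 9 names were called lower. Hnrnph2, a splicing regulator, had 2 of its 4 rows called, both at −9.81 with means of 7.74 and 7.60, in the authors' deposited table. Its rows reached up to 2.67 there, and 1 of the calls ended when p was adjusted over all rows. Cxcl12, a chemokine, was called in 1 of 3 rows, at −7.85 by the authors' deposited table (SE 1.85, mean 9.88). Its rows ran from −7.85 to 6.96 there, so for neither gene does a called row stand for the others. Above a mean of 100 the only protein-coding call was Scp2, which encodes the peroxisomal sterol carrier protein and thiolase. Its called row was put by the authors' deposited table at −9.72 (SE 1.96, mean 162, adjusted p = 0.0389) and its other row at 0.96 (SE 2.03, mean 10.6).

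**Figure D4:**
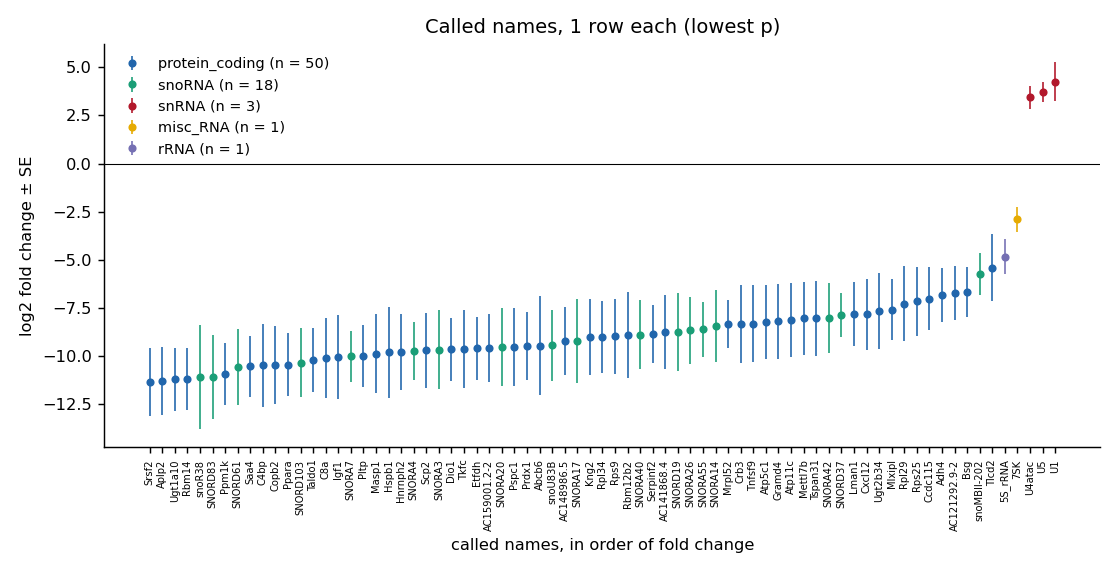
Log2 fold change (y axis) with its standard error for each of the 73 called names, ordered by fold change and coloured by RNA class, using the row of lowest p. The order is for display and is no ranking of the lower calls. The 3 snRNA names lie above 0; 7SK at −2.91 and 5S_rRNA at −4.85 are the lower calls nearest to 0.

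Gene lists were all chosen with earlier results of these data known, so their shares partly restate the calls. They were set beside the 3.79% of tested rows called lower. A list of SR proteins, hnRNPs and other RNA-binding proteins of the nucleus, drawn up with calls of these data known, had 4 of 15 tested rows called lower. They were Srsf2 (Sfrs2 in the files), an SR protein, 2 rows of Hnrnph2, and Rbm14, which belongs to neither family. Cytosolic ribosomal protein genes had 6 of 45, from the names Rps9, Rpl34, Rps25 and Rpl29. Of these, 3 are Rps9 rows whose fold changes match to 3 decimals in the authors' deposited table, and all 6 calls ended when p was adjusted over all rows (adjusted p from 0.0668 to 0.121). Genes of fatty acid oxidation and PPARA targets had 2 of 15, the rows of Ppara and Etfdh. Nuclear genes of the respiratory chain had 1 of 38, Atp5c1, which was put by the authors' deposited table at −8.25 (SE 1.93, adjusted p = 0.0465). Rows named Ugt1a10 had 8 of 9 called lower, some of which lost their call when p was adjusted over all rows. These rows share exons of the Ugt1a cluster, and the other tested row was put by the authors' deposited table at 2.89 (SE 2.49).

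Other lists held no called row, or only 1, which in lists of this size is near the 3.79% called lower over all tested rows. Secreted hepatocyte proteins had 1 of 57 tested rows called, Saa4, at a list median of −0.33 in the authors' deposited table. Albumin (Alb) was put by the authors' deposited table at −0.18 (SE 0.63, mean 3971) and Serpina1c, an antitrypsin gene, at 0.04 (SE 0.66, mean 1864). Cytochrome P450 genes of families 1 to 4 had 0 of 24 called and a median of 0.10 over 39 rows in the authors' deposited table. Replication-dependent histone genes had 0 of 36 called with a median of −1.04 in the authors' deposited table. Amino acid breakdown and urea cycle genes had 0 of 14 called with a median of −0.38 there. The median over all 7569 rows was −1.59. Genes that host snoRNAs in their introns had 0 of 10 called. Their median in the authors' deposited table was 0.14, which falls on a fold change that 271 rows share. It was −0.34 with 1 row per name and −0.30 at means of at least 10, so no contrast with the snoRNAs is drawn. All 6 hepatocyte markers were present, at means from 11.4 to 3971. Other cell types could hardly be tested. Of the macrophage markers 5 names were present with a highest mean of 9.64 and 1 tested row, not called, and the endothelial, stellate, lymphocyte and biliary markers had 0 tested rows. All 3 erythroid marker rows were tested and lay below 0, as did 5334 of all 7569 rows, and none was called. By the authors' deposited table Hba-a2, a hemoglobin gene, was at −1.40 (SE 1.40, mean 129), Alas2, which starts heme synthesis, at −8.78 (SE 2.71, adjusted p = 0.187), and Hba-a1 at −23.04 (SE 3.44, adjusted p = 0.204). The part of red cell RNA in the lower calls was not tested.

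RNAs encoded in the mitochondrial genome were abundant, and none was called, beside 4.69% of all tested rows called in either direction. With so few rows, 0 calls is not read as a result about these RNAs. Their transcripts are made inside the organelle without a cap. The 21 mitochondrial transfer RNA rows had means from 73.0 to 23959 and a median log2 fold change of −0.83 by the authors' deposited table, with a median SE of 0.75. Of these, 20 lay below 0, beside 5334 of all 7569 rows. The mitochondrial ribosomal RNAs were put by the authors' deposited table at −0.67 (SE 0.55) and −0.72 (SE 0.65). Mitochondrial messenger RNAs had 0 of 13 rows called and had log2 fold changes from −0.77 to 0.14 by the authors' deposited table. Over rows with means of 10 or more the median was −0.82, and after subtracting that median the transfer RNAs had a median of −0.01. Leaving out folds that 10 or more rows share, the median over rows with those means was −1.03. Of the transfer RNA rows 19 had means over 100, where the median over all rows was −0.38. The centred value of −0.01 thus depends on which rows are used for centring.

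Short polymerase III transcripts and microRNA precursors completed the classes. 7SK, which holds the elongation factor P-TEFb inactive, had 17 rows with a median of −1.81 by the authors' deposited table and 1 call, at −2.91 (SE 0.64, mean 2004, adjusted p = 0.0341). The 5S ribosomal RNA call was put by the authors' deposited table at −4.85 (SE 0.91, mean 19.9, adjusted p = 0.0278), while the most abundant 5S row stood at −1.03 (SE 0.94). Vault and Y RNA had 0 called. MicroRNA genes had 120 rows and 0 called of 43 tested, beside 4.69% called over all tested rows. An unadjusted p under 0.05 by the authors' test was held by 12 of 114 microRNA rows, beside 712 of 6846 over all classes. The precursor of miR-122, the main microRNA of hepatocytes, was put by the authors' deposited table at −0.46 (SE 0.80, mean 128, adjusted p = 1). Immunoglobulin V genes had 33 rows, 0 called of 9 tested and 0 at an unadjusted p under 0.05 by the same test.

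Many rows of different level carried the same fold change. A log2 fold change of −0.819, to 3 decimals, was shared by 842 rows of the authors' deposited table. Their means ran from 2.32 to 162, a 69.7-fold range. Another 271 rows shared 0.143 in the authors' deposited table. In all, 1404 rows (18.5%) carried 1 of 19 values that at least 10 rows share, and 0 of them were called. Trim36, the row of highest mean at −0.819, and 27 of the 33 immunoglobulin V rows were among the 842. Trim36 is named because its mean stood out, after its value was seen. What a shared fold says about the reads of the groups compared was not tested, and medians that fall on −0.82 rest on it: those of U6 snRNAs, of immunoglobulin V genes and of all rows with means of 10 or more, against which the mitochondrial RNAs were read. The median of snoRNA host genes falls on 0.143 in the same way.

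**Figure D5:**
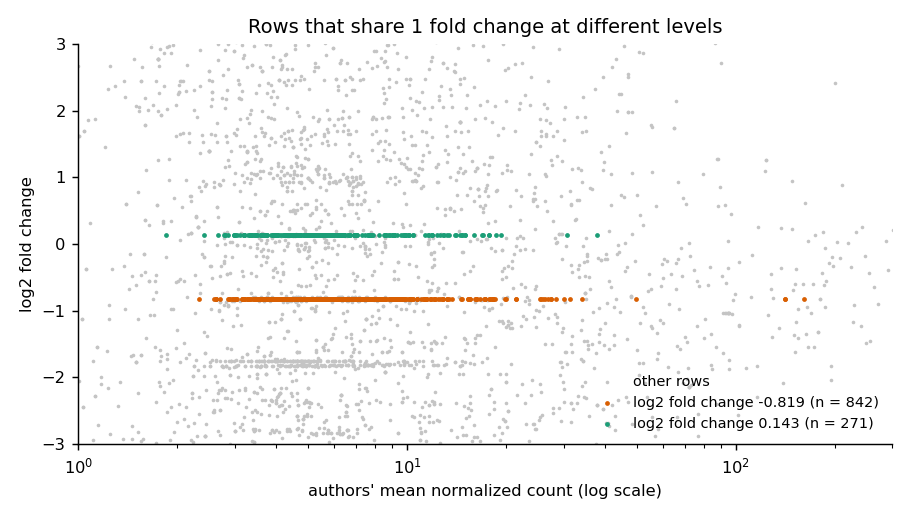
Mean normalized count (log x axis) against log2 fold change (y axis) for rows with a fold change between −3 and 3, with the 2 most repeated fold changes coloured. The horizontal line at −0.819 holds 842 rows and that at 0.143 holds 271, across means that differ up to 69.7-fold.

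At the other extreme, 68 rows had log2 fold changes beyond 15 in size, 33 above and 35 below 0, and 0 of them were called. Their highest mean was 50.9, for Hpd, an enzyme of tyrosine breakdown, put by the authors' deposited table at 21.73 (SE 2.53, adjusted p = 0.155). Of these 68 rows, 45 had no p. Rows without a p numbered 723 in all, with a median log2 fold change of −5.13 in the authors' deposited table, and DESeq2 is known to leave out a p where 1 library holds an extreme count. Whether that holds for these rows was not tested.

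Rows of 1 gene often repeated each other, and at times went apart. Of 7569 rows, 1870 had mean, fold change, SE and statistic identical to another row, which left 6484 distinct sets of values. Among 1225 protein-coding names with more than 1 row, the fold changes of a name spanned less than 0.1 in 756 and more than 5 in 152. Of the 21 such names with a call, 7 had every row called and 14 only some. Rpl36al, a ribosomal protein gene picked after its values were seen, had rows above a mean of 100 that were put by the authors' deposited table at 4.77 (SE 1.77), −3.79 (SE 1.45) and −1.55 (SE 1.21), none called.

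Rows just inside the threshold were Bsg, a membrane glycoprotein gene, at −6.69 (SE 1.29, adjusted p = 0.0495), and both Tlcd2 rows at −5.42 (adjusted p = 0.0493) by the authors' deposited table. Before them came a pair of U1 rows at 4.03 and 4.02, both with an adjusted p of 0.0477 by the authors' deposited table. Just outside were Rps27 at −8.01 (adjusted p = 0.0520), then Fosb at −8.14 and Rpl28 at −10.26 (both 0.0522) by the authors' deposited table.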

How the data were processed

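Immunoprecipitated and input RNA of wild-type and Fto knockout liver were each compared by the authors. miCLIP links antibody and RNA by ultraviolet light and sequences the bound fragments. The submitters' processing notes list, without role, STAR, bedtools 2.25.0, DESeq2 and the mm10 build; counting rules, filters and the model: each was not given in the sources used here. Per the file headers the authors deposited a mean normalized signal per row (a mean of scaled read counts), a log2 fold change, its standard error (also log2), a test statistic (a score), a p-value and an adjusted p-value.

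The authors' p equalled the chi-square upper tail (1 degree of freedom) of that statistic. Above a mean of 100 the statistic was a median of 0.421 times the square of fold change over standard error, so p and printed fold do not come from 1 Wald test. The term tested was not given in the sources used here.

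Rows were called at the authors' adjusted p under 0.05 and counted by direction, RNA class and mean (under 10, 10 to 100, over 100), with Python 3.11.15, pandas 2.3.3 and scipy 1.17.1; no model was refitted. Older symbols of protein-coding rows were brought to current ones through RefSeq synonyms (GRCm38.p6). Named rows were those of lowest p or highest mean per class, band and list, and those next to the threshold; rows named outside that rule are marked or are given as examples of their copies. Members and lists were chosen with earlier results of these data known. Recomputed calls by the ratio of fold to standard error were tested on simulated folds, drawn with the deposited standard errors. That checks the code only, and the authors' own calls were not tested in this way.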

Additional observations from a re-analysis of the deposited data

How the results depend on the processing

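The depth of single libraries is unknown, and leaving out a replicate was not possible from comparison columns. No paired analysis was possible because the deposited columns are comparisons and carry no replicate. Of 119 recomputed counts and medians, 94 stayed within 1.5 times the count or within the median standard error. That standard error is of single rows and not of a median, so it is a wide bound, and staying within it is no check of a median. Centring took the same value, −0.82, from every class, so only a class with a smaller median standard error could leave that bound. Against 21 higher and 89 lower calls, adjusting over all rows with a p gave 5 and 29, a threshold of 0.01 gave 3 and 22, a threshold of 0.1 gave 36 and 168, and the ratio of fold to standard error gave 213 and 606; 1 row per name gave 2 higher. Of the 110 calls, 34 were kept by the adjustment over all rows and 110 by the ratio. The authors' statistic was a median of 0.325 (called higher) and 0.562 (called lower) times the square of that ratio. The ratio thus mostly gives a smaller p than the authors' test, so its keeping the calls is no check of them. With 1 row per distinct set of values, an alternative chosen after seeing the data, 21 higher and 84 lower calls remained. Adjusted over all rows with a p, lower calls under a mean of 10 numbered 1, those between 10 and 100 numbered 28 (1 higher), and those above 100 numbered 0 (4 higher). With 1 row per name there were 0 higher and 49 lower between 10 and 100, and 2 higher above 100. The same restriction gave 2 Sm-class snRNA names higher, and lower calls of 0 for other polymerase III RNAs, 6 for H/ACA box snoRNAs and 1 for the Ugt1a cluster. It moved the median of ribosomal RNA to 0.62 and of the SR, hnRNP and other RNA-binding proteins from −1.0 to −4.33. At a mean of at least 10, that list's median lay on the other side of 0, at 0.36, and 2 of its rows stayed lower. Centring moved the median of mitochondrial transfer RNAs to −0.015. For each of these the cause was not tested, other than fewer rows entering.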

Other observations

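Input RNA of the same study gives the levels beside the lower calls. Of the 50 protein-coding names called lower in the immunoprecipitate, 47 had 1 gene in the input comparison. Their input log2 fold changes had a median of −0.03 and ran from −0.72 to 0.38 in the authors' deposited table, 27 of them below 0. None was called in the input, where 0.0389% of genes were called. Over all 12379 protein-coding input genes the median was 0.02 and the range −1.49 to 1.36 in the authors' deposited table. Protein-coding rows of the immunoprecipitate ran from −25.05 to 22.89. Whether both sets of fold changes are on 1 scale was not given in the sources used here. Their sizes are therefore not compared, and small input values do not measure levels on the scale of the immunoprecipitate.

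For single genes the authors' deposited table gave Rbm14 0.38 in the input, Ppara −0.51, Saa4 −0.20 and Ugt1a10 −0.06, none called.

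Telomerase RNA, another capped noncoding RNA, had 1 row in the immunoprecipitate, which the authors' deposited table put at 0.93 (SE 1.14, mean 34.2, adjusted p = 0.753). Among microRNA genes the lowest adjusted p, 0.0852, belonged to a row of mmu-mir-692-2 at −5.48 (SE 1.70) by the authors' deposited table. Its other row stood at −3.37 and mmu-mir-692-1 at −5.51 (SE 1.72), none called by the authors' deposited table.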
